A study of Mus musculus with 4 samples.

Results

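The long intergenic noncoding RNA (lincRNA) probes of a mouse expression array were read in bone marrow LSK cells, the lineage-negative fraction that carries Sca-1 and c-Kit and holds blood stem cells and multipotent progenitors. No probe had lincRNA in its gene or systematic name, so the members were taken as the non-control probes whose name starts with A_30_P. There were 16251 of them, 29.2% of the 55681 non-control probes, and the description of all 16251 starts with the word lincRNA. Each is a 60-base oligonucleotide printed as 1 spot, and none was saturated on any array.

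Every sample came from lethally irradiated mice that had been given E14.5 fetal liver cells, with C57B6 as the labelled background strain. The donor cells were wild type (WT, taken at 16 weeks after the transplant), carried a knock-down of TET2 (TET2KD, 10 weeks), carried the JAK2V617F transgene (16 weeks), or carried both changes (double mutant, 13 weeks). TET2 is an enzyme that oxidises methylated cytosine in DNA, and V617F is the activating change in the JAK2 kinase found in myeloproliferative neoplasms. The design lists 5 mice per genotype, but each genotype has 1 array, and whether the mice were pooled is not given in the sources used here. The method of the knock-down, the promoter of the transgene and the sex of the animals are not given either, and the time after transplant differs between groups. Genotype, time and the particular mice used therefore cannot be told apart. No difference below has a replicate or a test behind it, and "higher" and "lower" describe these arrays. In sorted cells, a lower value may come from fewer cells of a type or from less RNA per cell, and these cannot be told apart.

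LincRNAs are transcripts made from their own genes between protein-coding genes, often spliced and with a poly(A) tail, that are not known to be translated into long proteins. Most are present at low levels and in few cell types. A few are well studied: Xist coats and silences an X chromosome in female cells, Malat1 (also called NEAT2) and Neat1 stay in the nucleus at speckles and paraspeckles, and Kcnq1ot1 silences neighbouring imprinted genes. Others, such as the small nucleolar RNA host genes, carry small RNAs in their introns. Most members, in contrast, are named by an interval of the genome alone.

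Levels are log2 signals minus the array's 75th percentile, so a level of 0 is that percentile, and a difference of 1 is 2-fold. Signals of different probes depend on their sequence, so a brighter probe is not evidence of more RNA. The signal at the 75th percentile ranged from 120 to 144 units over the 4 arrays, and repeated spots of the same probe differed with an SD of 0.151 to 0.159 log2. Of the 9 genes listed as LSK and progenitor markers, 8 were well above background on each array, the exception being Slamf1. Kit read 4.19, 3.82, 2.93 and 2.37 in WT, TET2KD, JAK2V617F and the double mutant, the order used for all levels below. Ly6a, which encodes Sca-1, read 2.13, 3.42, 3.32 and 2.71, so the 2 gate genes went opposite ways against WT. Of the 8 granulocyte genes listed, 7 or 8 were above background on each array, and all 3 megakaryocyte genes were. Of the 4 monocyte and macrophage genes, 2, 2, 3 and 4 were above background in the order of the arrays. Of the other lists, 1 to 3 of the 3 plasma cell genes, 2 or 3 of the 4 erythroid genes, 2 of the 4 B cell genes and 1 of 2 T cell genes with a probe were above background. The part of these cell types in the results below was not tested. The labels describe amplified cDNA labelled with a kit made for genomic DNA, and whether the strand of the RNA was kept is not stated.

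The members tile 3555 genome intervals, which lie 1 to 10 probes deep per strand. Of these intervals, 1067 were probed on both strands, giving 4622 stranded intervals. Forward intervals held 8199 members and reverse intervals 8052. The median interval spans 7328 bases (quartiles 794 and 21818), and 1811 stranded intervals have 3 probes. Positions are those of the mm9 build in the file headers, and 118 members had none. The sequences below are the probes that the results turn on, all written 5′ to 3′ as printed on the array.

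The first set shows the brightest kinds of member. A_30_P01025521 (chr6:92040785-92040844, forward) carries a run of GT, in capitals. A_30_P01025541 (chr2:152011035-152011094, forward) has in capitals 27 bases that it shares, on the opposite strand, with a probe for Rps15a, a protein of the small ribosomal subunit. A_30_P01018010 (chr17:39980645-39980704, reverse) and A_30_P01021775 (chr17:39982106-39982165, forward) lie at Rn45s, the gene of the ribosomal RNA precursor, and are shown without capitals.
A_30_P01025521: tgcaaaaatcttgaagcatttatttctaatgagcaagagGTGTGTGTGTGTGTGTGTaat
A_30_P01025541: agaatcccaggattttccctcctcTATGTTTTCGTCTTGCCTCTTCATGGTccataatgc
A_30_P01018010: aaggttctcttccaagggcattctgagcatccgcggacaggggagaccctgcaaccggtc
A_30_P01021775: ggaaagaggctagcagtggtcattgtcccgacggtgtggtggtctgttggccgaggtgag

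The second set comes from XIST, the named RNA that differed most between arrays. A_30_P01020783 (chrX:100656022-100656081) and A_30_P01030803 (chrX:100656082-100656141) both lie on the reverse strand, and they have no capitals.
A_30_P01020783: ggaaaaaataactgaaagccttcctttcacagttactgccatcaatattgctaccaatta
A_30_P01030803: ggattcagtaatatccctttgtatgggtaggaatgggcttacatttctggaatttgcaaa

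The last set shows pairs of members of 1 interval that read opposite strands of nearly the same bases, with the shared bases in capitals. The pair on chromosome 5 (A_30_P01024047, chr5:77203901-77203960, reverse, and A_30_P01023941, chr5:77203902-77203961, forward) shares 59 bases. The pair on chromosome 16 (A_30_P01026832, chr16:89963529-89963588, forward, and A_30_P01022857, chr16:89963539-89963598, reverse) shares 50, and the pair on chromosome 17 (A_30_P01024116, chr17:86565385-86565444, forward, and A_30_P01026204, chr17:86565409-86565468, reverse) shares 36.
A_30_P01024047: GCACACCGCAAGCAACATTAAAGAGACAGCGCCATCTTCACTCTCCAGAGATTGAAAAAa
A_30_P01023941: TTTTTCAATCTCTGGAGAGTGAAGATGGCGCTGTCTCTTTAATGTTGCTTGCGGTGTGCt
A_30_P01026832: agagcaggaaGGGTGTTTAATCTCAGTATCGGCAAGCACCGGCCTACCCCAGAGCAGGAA
A_30_P01022857: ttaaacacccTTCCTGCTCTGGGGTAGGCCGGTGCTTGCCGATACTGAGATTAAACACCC
A_30_P01024116: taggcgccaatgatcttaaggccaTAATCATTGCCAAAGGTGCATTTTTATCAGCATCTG
A_30_P01026204: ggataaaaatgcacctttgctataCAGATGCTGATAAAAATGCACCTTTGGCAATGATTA

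The lincRNA probes were above background less often than probes of protein-coding genes and more often than probes of RefSeq long noncoding RNA genes. The share of members well above background, by the flag of the scanner software, was 45.9% for WT, 43.5% for TET2KD, 48.7% for JAK2V617F and 48.1% for the double mutant. Protein-coding probes, of which there were 29068, stood at 55.7%, 53.7%, 59.1% and 58.5%, and the 2090 RefSeq lncRNA probes at 32.4%, 28.9%, 34.5% and 33.5%. The order of the arrays was the same in the 3 kinds of probe, with TET2KD lowest and JAK2V617F highest. Of the members, 5337 (32.8%) were above background on all 4 arrays, against 44.2% of protein-coding and 21.1% of RefSeq lncRNA probes. On none were 5977 members (36.8%), beside 31.6% of all other probes. Another 2238 were above background on exactly 1 array, 678 of them on JAK2V617F, 633 on the double mutant, 516 on WT and 411 on TET2KD. The same count was not made for other probes, so it is not read as a trait of the members. At least 1 member was above background on all 4 arrays in 2088 intervals, 58.7% of the 3555.

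Detection followed base composition. Members with under 35% G and C were on all 4 arrays in 20.4% of cases and members with 60% or more in 85.4%, and for the other probes these shares were 31.9% and 87.9%. Members held more G and C than other probes, with medians of 45% and 41.7%. Across the 16251 members, which share the same 4 arrays, the Spearman correlation of G and C content with the mean level was 0.30, and it was 0.21 for the other probes. By chromosome, the share of members on all 4 arrays ran from 25.5% on chromosome 9 to 38.6% on chromosome 5.

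**Figure D1:**
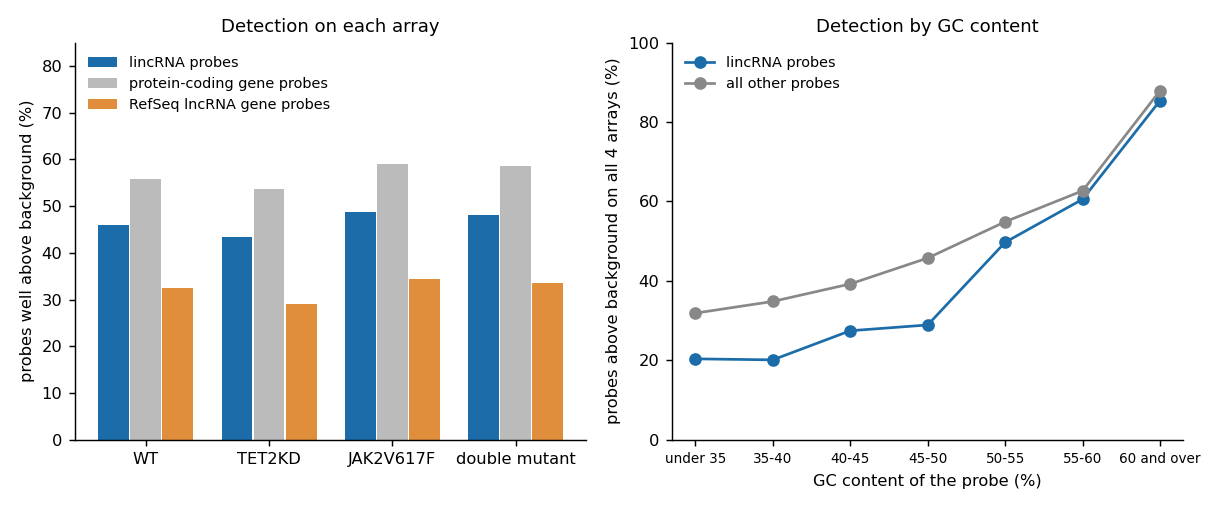
Left, percent of probes well above background on each of the 4 arrays (bars from 0) for lincRNA probes, probes of protein-coding genes and probes of RefSeq lncRNA genes, with lincRNA probes between 43.5% and 48.7%. Right, percent above background on all 4 arrays by G and C content of the probe, rising among lincRNA probes from 20.4% below 35% to 85.4% at 60% or more.

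The median member lay just at the edge of detection. Median levels were -3.07, -3.08, -3.11 and -3.15, beside -2.40, -2.38, -2.37 and -2.34 for the other probes, and the lowest level well above background was -3.01, -2.79, -3.22 and -3.37 on the 4 arrays. Among members above background on an array, the median was -0.69, -0.48, -0.88 and -0.82. The upper tail was alike, with 95th percentiles of 2.45, 2.39, 2.37 and 2.41.

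The brightest members were not typical lincRNA probes. The 20 members in the 5 intervals around Rn45s (chr17:39960567-39992817) were all above background on all 4 arrays, and they made up 16 of the 100 brightest members by mean level. Their mean levels ran from 4.65 to 10.1, with medians of 8.52 for the 10 forward members and 8.37 for the 10 reverse members. A_30_P01018010, the brightest member of all, read 10.25, 10.21, 10.07 and 9.91. A_30_P01021775 on the other strand read 9.70, 9.59, 9.61 and 9.50. The 4 arrays were well within 2-fold of each other at both, and the strands were about equally bright.

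A second bright kind shared sequence with other probes. There were 366 members that shared at least 25 bases with another probe of the array, and 17 of the 100 brightest were among them. Where the shared bases were on the same strand (247 pairs with 231 members), the Pearson correlation of the levels was 0.943 with a median difference of 0.004. Where they were on opposite strands (173 pairs, 136 members), it was 0.910 with a median difference of 0.339. Such pairs are not separate readings. Members sharing bases with ribosomal protein probes were bright on either strand: the median level was 6.88 over 11 members on the opposite strand and 5.15 over 4 on the same strand. A_30_P01025541, whose shared Rps15a bases are shown above, read 9.50, 9.27, 9.32 and 9.37.

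Runs of GT marked another bright kind. The 19 members with GTGTGTGTGT in the printed strand (0.117% of members, against 0.347% of other probes) were all on all 4 arrays with a median level of 5.99, and they held 7 of the 100 brightest places. The same motif on the other strand, CACACACACA, was in 17 members with a median of 0.42. CTCTCTCTCT was in 13 members with a median of 0.92, and GAGAGAGAGA in 13 with a median of -1.94. Levels thus differed by strand of the repeat. Among the 8 brightest members there was also A_30_P01020015, another member of the Rn45s intervals, which read 9.18, 9.34, 9.36 and 9.08. A_30_P01031405, at the Malat1 region, read 9.01, 9.36, 8.45 and 8.62, within 2-fold of each other.

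The same oligonucleotide read closely when it was printed again. There were 79 members with the exact sequence of a probe outside the lincRNA set. Where both copies were above background (34, 34, 35 and 43 pairs on the 4 arrays), their levels differed by a median of 0.098, 0.126, 0.113 and 0.109. The difference between 2 arrays was read by both copies for 30 to 34 pairs, and the Pearson correlation of the readings was 0.933 for TET2KD minus WT, 0.794 for JAK2V617F minus WT, 0.951 for double mutant minus WT, 0.788 for double mutant minus JAK2V617F and 0.970 for double mutant minus TET2KD. Of the members at least 2-fold different, the twin was 2-fold different the same way for 4 of 5, 8 of 10, 9 of 10, 4 of 5 and 8 of 10. These twins show the error of the array reading alone, since both copies met the same labelled sample.

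Probes of the same interval differed together when they lay within about 100 bases and hardly at all beyond 2000. Differences between 2 arrays were compared over pairs of members that were above background on both. For same-strand pairs whose probes overlap, the Spearman correlation was 0.87 to 0.93 over the 5 comparisons (89 to 98 pairs each). With starts 60 to under 100 bases apart, it was 0.63 to 0.69 (1345 to 1584 pairs), and from 100 to under 500 bases 0.33 to 0.41. From 500 to under 2000 bases it was 0.07 to 0.21, and from 2000 to under 10000 bases -0.01 to 0.03. Pairs of probes of the same annotated gene gave 0.76 to 0.84 where they overlapped and 0.64 to 0.78 from 60 to under 100 bases. Members of 1 interval are thus not replicates of each other.

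Overlapping probes on opposite strands mostly differed the same way, though less closely than overlapping probes on the same strand. For overlapping pairs on opposite strands, the correlation was 0.70 to 0.76 (657 to 749 pairs), from 60 to under 100 bases 0.56 to 0.62, from 100 to under 500 bases 0.24 to 0.36 and from 500 to under 2000 bases 0.04 to 0.16. When a member of an overlapping opposite-strand pair was 2-fold different, its partner had the same sign in 90.1% to 95.4% of cases. For overlapping pairs on the same strand this share was 97.8% to 100%. The 3 printed pairs, chosen after their values were seen, show it in single values. On chromosome 5, A_30_P01024047 read 2.45, 0.24, 1.03 and -2.08, and A_30_P01023941 read 2.56, 0.02, 0.94 and -3.90. On chromosome 16, A_30_P01026832 read -2.37, -1.38, 3.08 and -2.09, and A_30_P01022857 read -1.27, -0.99, 3.28 and -0.84. Both strands were highest in WT in the first pair and in JAK2V617F in the second. On chromosome 17, A_30_P01024116 read -2.11, 2.57, -1.80 and -5.47, and A_30_P01026204 read -2.60, 3.27, -1.91 and -5.43, with TET2KD highest on both strands. Not every pair was so alike. On chromosome 9, A_30_P01025345 and A_30_P01022500 share 50 bases but differed by 0.69 and -1.61 between JAK2V617F and WT.

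Mean levels were less alike between opposite strands than within a strand. Across 2645 overlapping opposite-strand pairs, the Pearson correlation of the mean levels was 0.613, and 48.9% were within 2-fold of each other, against 0.851 and 72.9% for 203 overlapping same-strand pairs. Of the 1067 intervals probed on both strands, 587 had a member on all 4 arrays on both strands, 158 on the forward strand alone, 158 on the reverse strand alone and 164 on neither. The strand letter of an interval is therefore used below as a name, and not as the direction of a transcript.

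**Figure D2:**
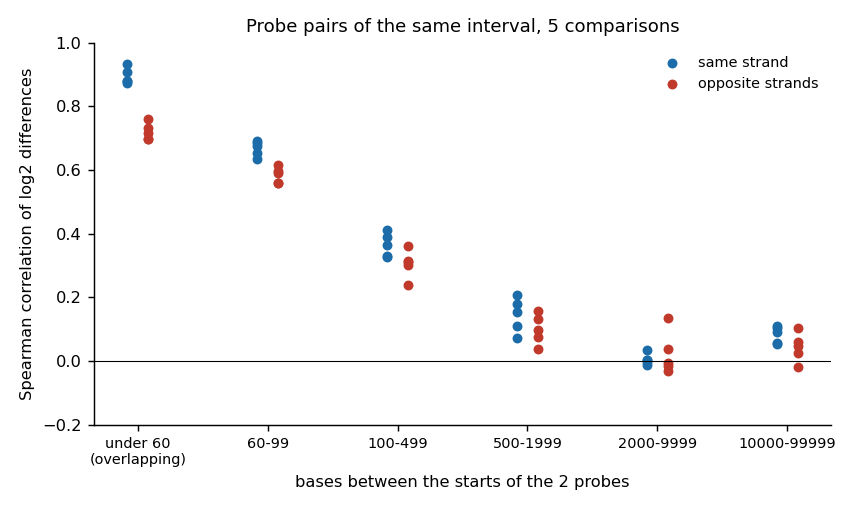
Spearman correlation of the differences of 2 probes of the same interval (vertical axis) by the distance between their starts in bases (horizontal axis), for same-strand and opposite-strand pairs, 1 point per comparison. Overlapping pairs lie between 0.70 and 0.93 on either strand, and same-strand pairs 2000 to under 10000 bases apart between -0.01 and 0.03.

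**Figure D3:**
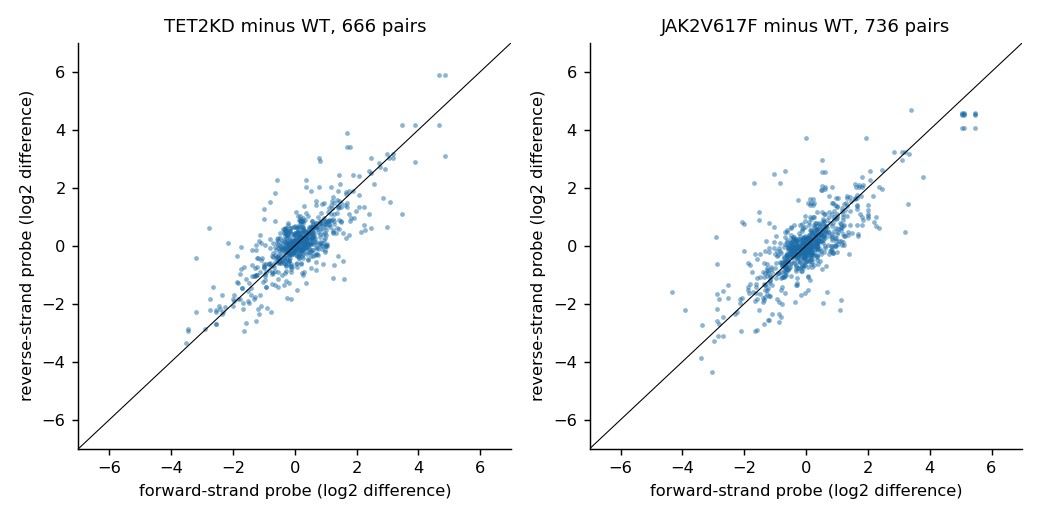
Log2 difference of the forward probe (horizontal) against that of the overlapping reverse probe (vertical) for TET2KD minus WT, 666 pairs, and JAK2V617F minus WT, 736 pairs. Points gather along the diagonal in both, including those several-fold different.

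The lincRNA probes differed between arrays about as often as all probes did. A member entered a comparison when it was well above background on at least 1 of the 2 arrays, and a dim side was set to the lowest detected level of its array if that was higher, which makes the fold a lower bound, written "at least". Between TET2KD and WT, 1569 of 8604 compared members were at least 2-fold higher and 1371 lower, or 18.2% and 15.9%, where all non-control probes gave 17.6% and 17%. Between JAK2V617F and WT, 1408 of 9039 were higher and 1574 lower, or 15.6% and 17.4%, beside 16.1% and 16.4%. Between the double mutant and WT, 1422 of 8995 were higher and 1655 lower, or 15.8% and 18.4%, beside 16.3% and 17.5%. These 3 comparisons share the WT array.

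With the single mutants as the base, the shares were alike. Between the double mutant and JAK2V617F, 1330 of 9169 members were higher and 1460 lower, or 14.5% and 15.9%, beside 13.4% and 14.4% of all probes. Between the double mutant and TET2KD, 1275 of 8815 were higher and 1722 lower, or 14.5% and 19.5%, beside 15.6% and 17.6%. The counts depend on the background correction: with normexp, a model of signal and noise that adds a fixed offset, they came to 376 to 548 higher and 439 to 613 lower. All probes then gave 4.1% to 6.9% higher and 4.8% to 7.8% lower.

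How often a member differed depended on its brightness. Among members above background on both arrays, 25.1% differed 2-fold either way between TET2KD and WT, 25.5% between JAK2V617F and WT, 21.6% between the double mutant and JAK2V617F, and 24.9% between the double mutant and TET2KD. The other probes gave 28.1%, 26.4%, 20.6% and 26.4% in the same comparisons. Members were split at the quartiles of the mean signal of all non-control probes above background on at least 1 array. The groups of members thus differ in size. From the dimmest to the brightest, the share between TET2KD and WT was 20%, 25%, 31.3% and 16.7%, of 155, 1767, 2368 and 1628 members. Between JAK2V617F and WT it was 19.2%, 26.6%, 31.7% and 15.8%. This set leaves out members that went below background on 1 array, which are mostly dim. Over all compared members, 24.3% of the dimmest quartile were higher and 19.1% lower between TET2KD and WT, against 8.29% and 8.42% of the brightest. Between JAK2V617F and WT these shares were 16.6% and 22.8% against 8.17% and 7.62%, so the brightest members differed least under either count.

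Among the members, 57 carry the name of a known RNA instead of an interval alone, with 12 names in all. XIST, the RNA that coats the silent X chromosome, was the most different: all 5 members were at least 2-fold lower in TET2KD and in the double mutant than in WT, with median differences of -5.05 and -5.63. A_30_P01020783 read 3.87, -1.46, 2.73 and -3.53, which is 40.2-fold lower in TET2KD than in WT, and at least 151-fold lower in the double mutant. A_30_P01030803 read 3.03, -3.10, 1.95 and -5.25, at least 56.5-fold and at least 84.7-fold lower. Both printed XIST probes were high in WT and JAK2V617F and low in the other arrays, as were A_30_P01032945 (2.26, -4.40, 1.04 and -5.46) and A_30_P01022001 (0.47, -3.99, 0.07 and -3.98). A_30_P01023652 was dimmer, at -1.47, -4.83, -1.72 and -5.29, and with normexp background it fell under 2-fold (-0.47 in TET2KD and -0.68 in the double mutant). In JAK2V617F 3 of 5 members were 2-fold lower than in WT, at -1.22, -1.14 and -1.08 log2, and with normexp background A_30_P01030803 came to -0.97.

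Genes of the Y chromosome were read beside XIST. Ddx3y, an RNA helicase on the Y chromosome, read -5.07, -1.26, -1.92 and -0.53, with WT not above background. Eif2s3y, a translation factor, read -0.69, -0.93, -2.92 and -0.88, and Kdm5d, a histone demethylase, was above background on none. A Uty probe was above background in WT and JAK2V617F alone. The Y genes thus did not all follow the opposite order of XIST. The labels give no sex, and its part in the XIST result was not tested. TSIX, the antisense partner of XIST, had 1 of 5 members above background, A_30_P01033590, at -1.44 in the double mutant alone.

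NEAT2, the nuclear speckle RNA also known as Malat1, was lower in both arrays that carry JAK2V617F at the 3 members named for it. A_30_P01031072 read 5.14, 4.88, 3.23 and 3.64, 3.75-fold lower in JAK2V617F and 2.82-fold in the double mutant than in WT. A_30_P01020325 read 4.69, 4.01, 2.65 and 3.18, and A_30_P01019221 read 3.39, 3.32, 1.36 and 2.12. No member of NEAT2 was 2-fold different in TET2KD. These 3 probes lie close together at the low-coordinate end of the interval (chr19:5795689-5802671), and A_30_P01028538, which overlaps them, read 5.00, 4.48, 3.01 and 3.57. The annotated Malat1 probe covers the same bases as A_30_P01019221 and so is no separate reading, at -2.03 and -1.28 log2 in these arrays. Farther on, between bases 5797234 and 5802326, the 9 members on both strands differed less between JAK2V617F and WT, from -0.83 to -0.11.

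NEAT1, the scaffold of paraspeckles, was on all 4 arrays at 5 of 5 members (chr19:5842306-5845476). A_30_P01021631 stood out among them at -1.74, 1.17, -1.94 and -0.36, 7.54-fold higher in TET2KD and 2.60-fold in the double mutant than in WT, the latter 0.68 log2 with normexp. A_30_P01023251 read -0.18, 0.82, 0.85 and 0.78, and the median difference over the 5 was 0.60 in TET2KD. All 5 read higher in TET2KD than in WT, but 1 of them by 2-fold. The annotated Neat1 probe, higher by 0.90 log2, overlaps A_30_P01021631 and so is no separate reading. Over the 19 compared members of all intervals around Neat1, 2 were higher in TET2KD than in WT and 1 lower, with a median of -0.03.

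NRON, an RNA first described as a repressor of the transcription factor NFAT, was lower in the double mutant at 4 of 4 detected members, and at 2 of 4 in TET2KD and JAK2V617F (medians -1.29, -1.07 and -1.04). A_30_P01023721 read -0.91, -2.07, -4.41 and -4.71, and A_30_P01029993 read 0.26, -0.72, -0.53 and -0.75. With normexp background both came under 2-fold in the double mutant, at -0.94 and -0.65, and the second also with quantile scaling, at -0.99. TUG1, a widely expressed lincRNA, was on all 4 arrays at 5 of 5 members and lower than in WT at 3 in JAK2V617F, 2 in TET2KD and 0 in the double mutant. A_30_P01022467 of TUG1 read 3.48, 2.24, 2.07 and 3.26, and A_30_P01017489 read 1.08, -0.20, -0.20 and 0.71, both lower in the single mutants than in the double mutant, though the second came to -0.97 against WT with normexp. KCNQ1ot1 was on all 4 arrays at 5 of 5 members. A_30_P01026203 read 4.18, 3.61, 3.73 and 3.91, within 2-fold throughout. A_30_P01028756 read 0.14, 0.38, -0.81 and -2.10, 4.73-fold lower in the double mutant than in WT. Of the other members, 1 was 2-fold higher in JAK2V617F than in WT and 2 were in the double mutant against TET2KD. The 2 annotated Kcnq1ot1 probes were lower in the double mutant than in WT, by 3.14-fold and at least 4.07-fold. The members did not share this as a set: 1 of 5 was 2-fold lower there, and their median difference was 0.74.

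The remaining names were above background at few members. LincP21, a target of p53, was 9.01-fold higher in JAK2V617F than in WT at A_30_P01021484, which read -2.12, -2.42, 1.05 and -2.26, and at least 2.01-fold at A_30_P01017725, the latter under 2-fold with normexp (0.23). BRN1-A was detected at 1 of 4 members, A_30_P01032812, which read -0.43, -1.19, -1.44 and 2.55, 7.86-fold higher in the double mutant than in WT. That probe lies 120 bases from a probe of Pantr1. H19, the imprinted fetal RNA, was above background at 2 of 5 members, HOTAIR of the HoxC cluster at 1 of 5 and PINC at 1 of 5, and none of these on all 4 arrays. For HOTAIR that was A_30_P01022414, at -1.50 in TET2KD alone.

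**Figure D4:**
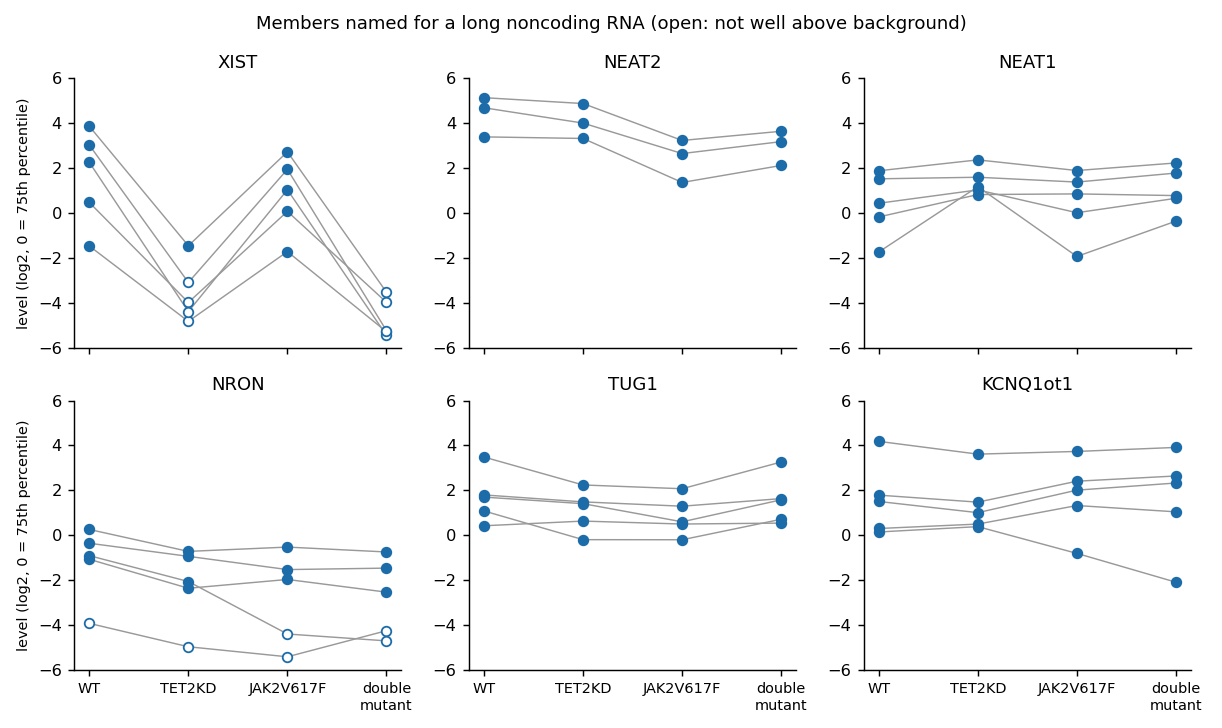
Scaled log2 level (vertical axis) of each member of XIST, NEAT2, NEAT1, NRON, TUG1 and KCNQ1ot1 on the 4 arrays (horizontal axis), 1 line per member, with open points where it was not well above background. The XIST lines drop in TET2KD and the double mutant, for example from 3.87 to -1.46 and -3.53, and the NEAT2 lines in the 2 arrays that carry JAK2V617F.

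A wider list of 67 known noncoding genes was set against the intervals by position. Of these genes 50 have a probe of their own, 30 of them inside or over a member interval, with 399 members. In TET2KD, 50 of 265 compared members were higher and 43 lower than in WT, in JAK2V617F 61 and 45 of 290, and in the double mutant 65 and 46 of 275. The medians were 0.13, 0.12 and 0.23. The shares higher were 18.9%, 21.0% and 23.6%, where all probes gave 17.6%, 16.1% and 16.3%, and many of these members overlap or share a gene. The shares lower were 16.2%, 15.5% and 16.7%, beside 17%, 16.4% and 17.5%. The listed genes' own probes went the other way, with medians of -0.21, -0.12 and -0.18 and 7 of 54, 9 of 54 and 5 of 57 higher.

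Host genes of small nucleolar RNAs went different ways. Gas5, which also accumulates when growth stops, had 12 of 12 members on all 4 arrays (chr1:162965309-162970704), and 5, 3 and 4 of 12 were lower in TET2KD, JAK2V617F and the double mutant (medians -0.82, -0.75 and -0.87). A_30_P01027433 read 6.88, 6.64, 6.11 and 6.08, and A_30_P01026370 read 3.25, 1.85, 2.13 and 2.66. WT was the highest array at both. In the interval of Snhg15 (chr11:6421951-6429173), 7 of 12 members were lower in TET2KD, with a median of -1.19, and 0 of 14 in JAK2V617F. A_30_P01029397 read 0.72, -2.39, 1.31 and 1.01, and A_30_P01024955 read 1.26, -1.20, 2.12 and 1.76. TET2KD stood below the other arrays at both, as it did at A_30_P01032909 on the other strand (0.43, -1.65, 1.21 and 0.99). The gene's own Snhg15 probe did not share this, at 2.83, 2.63, 2.23 and 2.32. Snhg17 went the other way, with 8 of 18, 10 of 21 and 13 of 18 members higher than in WT and medians of 0.72, 0.99 and 1.42. A_30_P01021037 of Snhg17 read 1.14, 2.81, 2.61 and 2.44, and WT was lowest.

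Other genes of the list differed at some members and not at others. Dleu2, the host of the miR-15a and miR-16 microRNAs, had 6, 10 and 10 of 17 members higher in TET2KD, JAK2V617F and the double mutant (medians 0.70, 1.42 and 1.19). A_30_P01018219 read -2.74, -0.31, 1.94 and 0.03. Dancr, named for holding back differentiation, had 6, 5 and 9 of 19 members higher and none lower, with A_30_P01028448 at -2.17, 0.28, 0.78 and 2.25. In the interval of Lncpint, a p53-induced RNA, 7 of 14 members were higher in TET2KD and 6 of 13 lower in the double mutant, while of the gene's own 2 probes 0 were higher in TET2KD (median -0.16) and 1 was lower in the double mutant. Its members A_30_P01026890, at 0.17, 3.26, 0.69 and 0.55, and A_30_P01029473, at 4.51, 4.80, 1.04 and 2.85, had different patterns. In the interval of Firre, an X-linked nuclear RNA, 9 of 14 members were lower in the double mutant, among them A_30_P01027173 at 1.54, -1.61, -1.88 and -1.85, but 0 of the 3 probes of the gene itself were (median 0.14). In the interval of Pvt1, next to Myc, 5 of 17 members were higher in JAK2V617F, and 0 of 2 probes of the gene itself. A_30_P01025334 read -4.08, -4.86, 0.80 and -2.45. Steady members were found too: Norad had 3 of 3 on all 4 arrays with no 2-fold difference from WT. Of the gene's own 4 probes, however, 1 was lower in TET2KD than in WT and 1 higher in the double mutant.

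Some intervals differed as a whole. A stranded interval was counted when it had at least 3 compared members and all were 2-fold different the same way. This rule was chosen after the values were seen, and probes of such intervals lie close together, so they are not independent. Between TET2KD and WT, 53 of 1292 intervals were higher and 43 lower (4.1% and 3.33%). Between JAK2V617F and WT, 35 of 1401 were higher and 58 lower (2.5% and 4.14%), and between the double mutant and WT, 50 of 1389 were higher and 63 lower (3.6% and 4.54%). Between the double mutant and JAK2V617F, 43 of 1425 were higher and 51 lower (3.02% and 3.58%), and between the double mutant and TET2KD, 37 of 1347 were higher and 62 lower (2.75% and 4.6%). Annotated genes with 3 or more compared probes gave 0.642% and 1.8% for TET2KD minus WT, 0.949% and 1.07% for JAK2V617F minus WT, 1.21% and 0.724% for double mutant minus WT, 0.473% and 0.827% for double mutant minus JAK2V617F, and 1.49% and 1.36% for double mutant minus TET2KD. The probes of a gene and of an interval lie at different distances, so these shares are not like for like. With normexp background the interval counts were 6 to 13 higher and 8 to 13 lower, and A_30_P01026204 below, for example, was higher by 3.97 log2 in TET2KD in place of 5.87.

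In TET2KD, the interval chr10:96096995-96097589, forward and 12029 bases from a probe of Btg1, an antiproliferative gene, was higher at all 3 members. A_30_P01028440 read -1.07, 2.55, -1.61 and -1.77, and A_30_P01026629 read -1.04, 2.91, -1.54 and -2.30, 12.3-fold and 15.5-fold higher than in WT. A_30_P01021850 was at least 32.0-fold higher. The double mutant, which also carries the TET2 knock-down, read near WT or below it. At chr17:86560289-86565864, 2555 bases from a probe of the kinase gene Prkce, A_30_P01027850 read 1.74, 4.84, 2.15 and 1.36, and the 4 reverse members were 7.43-fold to 58.4-fold higher in TET2KD than in WT. On the forward strand, 3 of 5 members were higher, among them A_30_P01030300 at -1.05, 3.80, -0.59 and -4.79. At chr2:175898018-175930211, reverse, A_30_P01030652 read -3.47, 3.29, -4.34 and -1.22, at least 78.5-fold higher in TET2KD. TET2KD was the highest array at each of these intervals.

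An interval lower on all 3 mutant arrays than on their common WT array lay at chr4:40202350-40205120, reverse, 4357 bases from a probe of Topors, a ubiquitin and SUMO ligase. A_30_P01018616 read 2.74, -0.06, -0.15 and 0.22, A_30_P01032661 read 3.09, -1.10, 0.16 and 0.38, and A_30_P01017519 read 2.86, -1.33, 0.18 and 0.59. WT was 4.81-fold to 18.2-fold above each mutant array. The neighbouring interval chr4:40194362-40202712 was lower in the double mutant at all 10 members of both strands.

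In JAK2V617F, both strands of chr16:89961600-89971725, with no annotated probe within 100 kb, were higher than on the 3 other arrays. A_30_P01026359 read -2.12, -1.89, 2.95 and -2.11, 33.5-fold higher than in WT, and A_30_P01028521 on the other strand read -0.74, -0.09, 3.32 and -0.38, 16.7-fold higher. The 7 members, which include the printed pair, lie between bases 89963499 and 89963604. At chr15:61870759-61938796, forward and 49352 bases from a probe of Myc, A_30_P01031088 read -2.86, -5.07, 1.11 and -5.48, and A_30_P01023245 was at least 12.7-fold higher in JAK2V617F than in WT. At chr10:87541696-87547421, reverse, A_30_P01017959 read -2.18, -1.90, 3.94 and -1.78, 69.7-fold higher than in WT. In each of these the double mutant, which carries JAK2V617F as well, read near WT or below it. At chr16:43623175-43624069, 4860 bases from a probe of the transcription factor gene Zbtb20, both arrays with JAK2V617F were lower. A_30_P01024338 read 2.64, 2.41, -2.00 and 0.50, 24.8-fold lower in JAK2V617F and 4.41-fold lower in the double mutant than in WT.

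In the double mutant, chr13:58474388-58487288, 3080 bases from a probe of 2210016F16Rik, was higher than on the other arrays. A_30_P01027355 read -2.27, -0.42, -2.15 and 1.64, and A_30_P01017674 read -1.81, -0.65, -1.72 and 1.60, 15.1-fold and 10.6-fold higher than in WT. TET2KD lay between at both. At chr16:21794415-21815365, forward and next to 1300002E11Rik, A_30_P01020932 read 2.46, -1.66, 1.25 and -2.19, and A_30_P01018614 read -0.31, -3.35, 0.90 and -2.73. Both arrays with the TET2 knock-down were low there. At chr1:183783306-183834531, 601 bases from a probe of the actin regulator gene Enah, A_30_P01031061 read 1.57, -4.79, 1.89 and 3.93, at least 105-fold higher in the double mutant than in TET2KD.

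**Figure D5:**
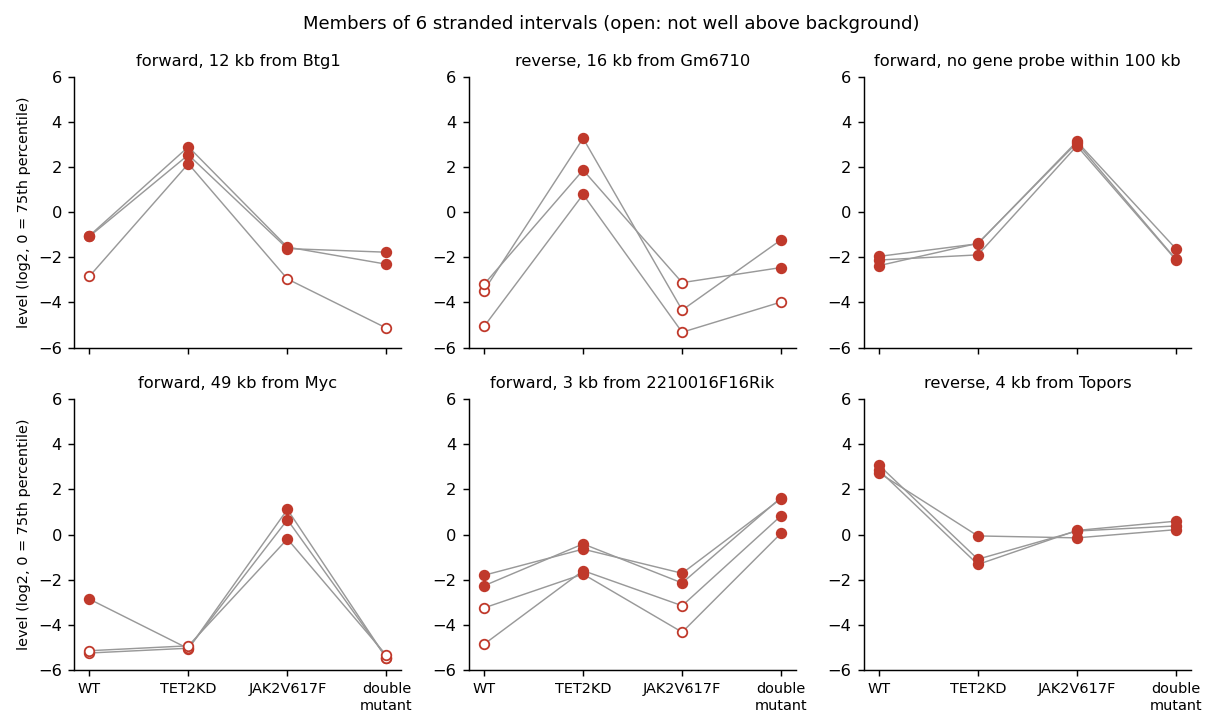
Scaled log2 level (vertical axis) of the compared members of 6 stranded intervals on the 4 arrays (horizontal axis), 1 line per member, with open points where it was not well above background. The intervals were picked because all their compared members differed 2-fold the same way in a comparison. That their members follow each other is thus given by the choice. Near Topors, WT lies at 2.74 to 3.09 and the mutants at -1.33 to 0.59.

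Members followed the nearest annotated gene at less than 1 kb and on the same strand. There the Spearman correlation of the differences of a member and the nearest annotated probe was 0.42, 0.53, 0.60, 0.43 and 0.41 in the 5 comparisons (166 to 201 pairs). On opposite strands it was 0.22, 0.24, 0.22, 0.03 and 0.19 (177 to 234 pairs). At 1 to 10 kb it ran from -0.06 to 0.10. The pairs share arrays, and several members often share a neighbour. Those under 1 kb include pairs that overlap or cover the same bases, as at Malat1, and are not all separate readings. The part of such pairs in the differences and levels was not tested. Levels went the same way, with Pearson correlations of 0.468 under 1 kb, 0.150 at 1 to 10 kb and 0.033 at 10 to 50 kb.

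Of 122 listed genes of blood cell formation and of JAK and TET signalling, 42 had a detected member within 100 kb, and 328 members lay there. In TET2KD, 53 of 278 compared were higher than in WT and 45 lower, in JAK2V617F 50 and 59 of 297, and in the double mutant 46 and 68 of 281. The shares higher were 19.1%, 16.8% and 16.4%, beside 17.6%, 16.1% and 16.3% of all probes. The shares lower were 16.2%, 19.9% and 24.2%, beside 17%, 16.4% and 17.5%. Of the 68 members lower in the double mutant, 16 lay near Mecom and 12 near Zfp36l1. Members near the same gene are not replicates of each other, so these shares rest in part on few loci. Socs2, a feedback inhibitor induced by JAK and STAT signalling, was itself higher in each mutant array (1.26, 3.99 and 3.02 log2). Its 14 nearby members, the nearest 1057 bases away, did not share this: 1 of 10, 0 of 12 and 2 of 12 were higher, with medians of 0.34, -0.03 and 0.29.

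Near Zfp36l1, an RNA-binding protein that speeds mRNA decay, 10 of 18, 7 of 18 and 12 of 19 members were lower in TET2KD, JAK2V617F and the double mutant, where the gene's own differences were -0.15, -0.88 and -0.85. A_30_P01019828 read 1.14, -0.33, -2.05 and -1.65, and A_30_P01024978 read 0.64, -2.65, -4.17 and -4.43. WT was the highest array at both. Near Mecom, a stem cell transcription factor gene, 8 of 33, 12 of 35 and 16 of 33 members were lower and 7, 3 and 6 higher, while the gene itself differed by 1.06, 0.32 and -0.75. A_30_P01028237 read 2.27, 1.77, -2.30 and -4.73, and A_30_P01017452 read 2.42, 1.96, -0.40 and -1.18. Both were low in the arrays that carry JAK2V617F.

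Of the members near Asxl1, a chromatin regulator mutated in myeloid neoplasms, the nearest lay 61 kb away. In TET2KD 9 of 13 were higher, with a median of 1.62, and the gene itself was higher by 1.78. The gene was also higher in JAK2V617F and the double mutant (1.64 and 1.33), but the members' medians there were 0.03 and 0.03. A_30_P01028365, near Asxl1, read -2.39, 0.76, -2.39 and -3.75. Near Egr3, an immediate early transcription factor gene, the members and the gene went opposite ways against WT in TET2KD alone. There 3 of 3 members were higher, with a median of 2.71, and the gene differed by -2.02. The members' median and the gene were both higher than in WT in JAK2V617F (2.03 and 1.55) and in the double mutant (1.70 and 1.95). A_30_P01028957 read -4.09, 1.09, -0.98 and 1.22. Near Myc, a growth-promoting transcription factor gene, 4 of 9 members were higher in JAK2V617F and 0 of 5 in TET2KD.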

How the data were processed

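The members, gene lists and naming rules were chosen with earlier results of these data known. Agilent Feature Extraction 10.7.3.1 made the deposited intensity values, per the file headers, with background subtracted and no scaling between arrays. The deposited series matrix holds log2 values that equalled the scanner's processed signals minus a constant per array, with 0 members off by more than 0.001; arrays were shifted and probes not centred. Its column medians were -2.64, -2.63, -2.60 and -2.60. Per the labels' protocols, Trizol RNA was amplified with the NuGEN Ovation Pico system and labelled with Cy3.

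Each array has 62976 spots. Processed signals were put on a log2 scale, less the 75th percentile over all spots other than controls. Outlier spots were dropped and repeated spots averaged with Python 3.11.15, numpy 2.4.6 and pandas 2.3.3, and figures drawn with matplotlib 3.10.9. The scripts were tested on simulated data. Genes were named by accession, symbol or synonym through a RefSeq table used for names only. Alternatives used normexp with an offset of 50 (limma 3.58.1 in R 4.3.3), quantile scaling, other filters and the series matrix. Members named in the text are the brightest and those with the largest differences both ways or the largest changes of a mutation's step. Others are those of named RNAs, listed genes and the fullest intervals. Members of whole intervals, the sequence pairs and the examples within lists were chosen after their values were seen. The part of the strand in these values was not tested.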

Additional observations from a re-analysis of the deposited data

Results flagged for a closer look

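The steps made by each mutation were compared for members picked for naming and above background on every array, not for all lincRNA probes. The step went 1 way on the WT background and the other way on that of the other mutation at 17 of these. Each step was at least 2-fold. Some members had been picked for a large change of step, so the count and the sizes follow in part from the choice. The share of all probes with such a turn was not computed, so whether 17 is many cannot be said. With 1 array per group these differences between steps were not tested, and no replicate stands behind them. The value given is the change of the step in log2, which is the same number for either mutation. At 8 members both steps turned: A_30_P01031301, A_30_P01031189, A_30_P01019849, A_30_P01028225, A_30_P01018487, A_30_P01022467, A_30_P01030080 and A_30_P01024246. These belong to neither mutation alone, and each is listed below under 1 of them. With normexp background, a step came under 2-fold at 6 of the 17: A_30_P01018487, A_30_P01018810, A_30_P01021167, A_30_P01032812, A_30_P01029535 and A_30_P01026192. With quantile scaling, the JAK2V617F step came just under 2-fold at A_30_P01018487 on the WT background, and to 0.99 at A_30_P01022467 on the TET2KD background.

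For the TET2 knock-down, the step changed by -7.55 at A_30_P01031301 (levels 0.16, 2.18, 3.63 and -1.90 in WT, TET2KD, JAK2V617F and the double mutant), where the nearest annotated probe, of Rmnd1, lies 11114 bases away. It changed by -6.31 at A_30_P01031189, 288 bases from a probe of 1110038B12Rik, by -5.16 at A_30_P01028149 and by -4.24 at A_30_P01026192 near Prkce. In the other direction it changed by 5.98 at A_30_P01019849, 5.69 at A_30_P01028225, 5.04 at A_30_P01018487, 4.67 at A_30_P01023226 near Cdc42 and 2.44 at A_30_P01022467 of TUG1.

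For JAK2V617F, the step changed by 6.76 at A_30_P01030080 near Arhgef3 (2.44, -2.19, -1.92 and 0.21), 6.20 at A_30_P01024246, 4.75 at A_30_P01032812 of BRN1-A, 4.67 at A_30_P01029535 near Cdc42 and 4.60 at A_30_P01017519 near Topors. It changed by 2.82 at A_30_P01021167 and 2.55 at A_30_P01018810, both within Oip5os1. It changed by -4.91 at A_30_P01022372, 556 bases from a probe of Pou2f1, which read 1.77, 1.75, 5.34 and 0.40. A_30_P01024246 and A_30_P01019849 read opposite strands of overlapping bases on chromosome 9 and so are not separate readings.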

How the results depend on the processing

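No paired analysis was possible because each group has 1 array. Counts are given in the order TET2KD, JAK2V617F and double mutant minus WT, then double mutant minus JAK2V617F and minus TET2KD. With normexp background, members 2-fold higher were 548, 503, 489, 376 and 465, and lower 569, 576, 613, 439 and 601. They were out of 8604, 9039, 8995, 9169 and 8815 compared. All probes gave 6.9%, 6.6%, 6.4%, 4.1% and 6.5% higher and 7.8%, 6.3%, 7.0%, 4.8% and 6.6% lower. With members above background on both arrays alone, they were 810, 738, 750, 710 and 636 higher and 675, 878, 852, 707 and 874 lower. They were out of 5918, 6335, 6270, 6560 and 6062 compared. All probes gave 13.7%, 12.7%, 12.6%, 10.3% and 12.3% higher and 13.6%, 13.5%, 13.7%, 10.6% and 13.7% lower. With no filter and no floor they were 2650, 2608, 2507, 2482 and 2391 higher and 2567, 2823, 2968, 2694 and 2845 lower. They were out of 16248, 16250, 16251, 16250 and 16248 compared. All probes gave 15.7%, 16.2%, 15.6%, 14.2% and 15.5% higher and 16.6%, 16.6%, 17.5%, 15.4% and 16.3% lower. At 3-fold they were 894, 767, 742, 675 and 647 higher and 796, 888, 979, 772 and 976 lower. With 1 mean per stranded interval they were 511, 409, 421, 412 and 357 higher and 394, 494, 526, 434 and 587 lower. For the 3-fold counts and the interval means, the share over all probes was not computed. The cause of the lower normexp counts was not tested; the others follow from the members admitted or the threshold. Under the less strict background flag, 74.5%, 70.0%, 76.8% and 74.7% of members were above background in WT, TET2KD, JAK2V617F and the double mutant, and normexp median levels were -1.26, -1.23, -1.29 and -1.34.

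Counts stayed within 1.5 times under quantile scaling, median scaling, the series matrix and, chosen after seeing the data, without members that share 25 bases with another probe. Correlations of probe pairs kept within 0.1. Whole-interval counts, an alternative set also chosen after seeing the data, were 13 to 19 higher and 14 to 27 lower with members above background on both arrays, and 36 to 50 and 43 to 63 under quantile scaling. Of 254 differences of at least 2-fold at members named here, 48 came under 2-fold with normexp, 3 with quantile scaling, 1 with median scaling and 1 with the series matrix, and 0 turned direction. Signal over background limits the dim members, since 36.8% were above it on no array, beside 31.6% of other probes.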
